A study of Ciona robusta with 6 samples.

Results

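Embryonic cells of the bipolar tail neuron (BTN) lineage of the tunicate *Ciona robusta* that carried the transcriptional activator Neurog were compared, gene by gene, with cells of the same lineage that carried Neurog:WRPW, a repressor made from the same protein. The contrast took the 2 Neurog and the 2 Neurog:WRPW libraries, 4 of the 6 libraries of the series, and every gene model above 1 CPM (counts per 1000000 counts of the library) in at least 2 of these 4. This kept 11884 of 15232 gene models and left out 3348, of which 319 had no count in the 4 libraries. The gene models are the KyotoHoya (KH) set, and the counts are of reads that fell in their exons.

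Embryos were electroporated with a *Neurog[BTN]* fluorescent reporter (red or blue) together with a second plasmid, and reporter-positive cells were sorted at 9.5 hours post-fertilisation (hpf) at 20°C. In the Neurog group the second plasmid was *Neurog>Neurog*, and in the Neurog:WRPW group it was *Neurog>Neurog:WRPW*. The remaining 2 libraries came from *Neurog>lacZ* embryos, the control of the series, and did not enter the contrast. In all groups the plasmids were driven by the regulatory sequences of *Neurog* itself, electroporation is mosaic, the cells kept their own *Neurog* gene, and no second reporter was used to remove other cells from the sort. Each group has 2 libraries that the study describes as independent biological replicates, each from cells pooled over embryos. The number of cells sorted differed widely between libraries and was smallest for Neurog:WRPW replicate 2.

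Neurogenin proteins are basic helix-loop-helix transcription factors that bind E-box sequences in DNA and turn on genes of neuronal differentiation. WRPW is a short peptide of the Hes repressors that recruits a corepressor of the Groucho family, so that Neurog:WRPW is meant to shut off genes that Neurog would switch on. BTNs arise at the edge of the posterior neural plate, leave the epithelium and migrate along the tail while they send out processes in opposite directions.

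The gene that the Neurog plasmid supplies, *Neurog* (KH.C6.129), is given first. It stood at 4180.3 and 4479.5 CPM in the Neurog libraries, against 106 and 166 CPM in the Neurog:WRPW libraries and 95.4 and 125 CPM in the lacZ libraries. Both Neurog libraries were therefore far above the other 4, and the Neurog:WRPW and lacZ ranges overlapped. In the contrast *Neurog* had LogFC = 4.74 ± 0.43 SE (edgeR, adjusted p = 0.0519). Reads of the plasmid and of the gene are counted together here, so this value cannot be read as the level of the cells' own gene, and it does not tell Neurog:WRPW cells from lacZ cells. The Neurog:WRPW plasmid carries the *Neurog* sequence under the same driver and at the same dose as the Neurog plasmid, yet its libraries were near the lacZ level. Whether its reads should add to this count could not be settled from the files, so the count checks the Neurog label alone and says nothing of the Neurog:WRPW label. The markers of the lineage that the study follows were detected in both groups. *Asic*, an acid-sensing ion channel, had 479 and 214 CPM in the Neurog libraries, against 14.1 and 1.16 CPM in the Neurog:WRPW libraries. *GAD*, the enzyme that makes GABA, had 725 and 147 CPM in the Neurog libraries, against 32.4 and 12.3 CPM in the Neurog:WRPW libraries. *Slc18a3/VAChT*, which loads acetylcholine into synaptic vesicles, had 177 and 129 CPM in the Neurog libraries, against 15.7 and 0 CPM in the Neurog:WRPW libraries. The Neurog:WRPW libraries of this gene ran from a clear signal to no read at all. *Onecut*, a homeodomain transcription factor, had 402 and 399 CPM in the Neurog libraries, against 36.2 and 14.6 CPM in the Neurog:WRPW libraries. All 4 markers were higher in both Neurog libraries than in either Neurog:WRPW library. In bulk libraries such as these, fewer cells of a type and less RNA per cell cannot be told apart.

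**Figure D1:**
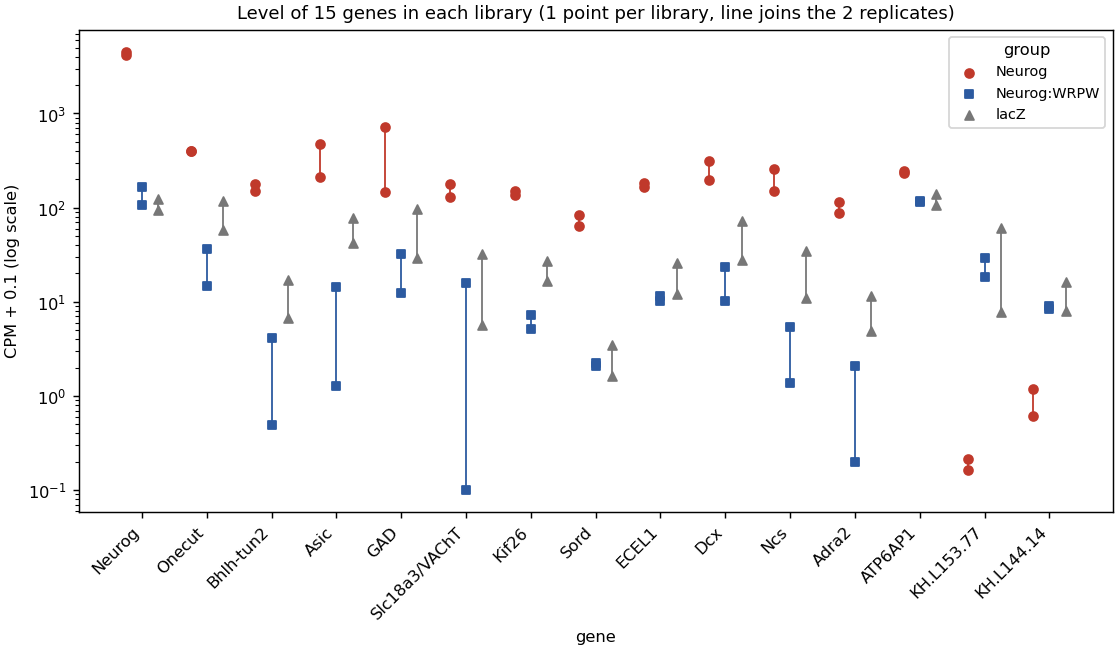
Level of 15 genes in each library, as CPM + 0.1 on a log axis, with Neurog (red circles), Neurog:WRPW (blue squares) and lacZ (grey triangles) from left to right within each gene; a line joins the 2 libraries of a group. The first 13 genes lie higher in both Neurog libraries than in either Neurog:WRPW library, and KH.L153.77 and KH.L144.14 lie lower.

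Library totals ran from 10315548 to 24499397 counts. The Neurog libraries held 17297185 and 15810101 counts, against 19565263 and 10315548 counts in the Neurog:WRPW libraries. A count of 3 amounts to 0.173 and 0.19 CPM in the Neurog libraries and to 0.153 and 0.291 CPM in the Neurog:WRPW libraries, which is taken as the floor of detection. Levels are given as CPM of the column total. LogFC is the log2 ratio of Neurog over Neurog:WRPW after TMM scaling, from edgeR's quasi-likelihood test. The test gives no SE, so the SE printed is the absolute LogFC divided by the square root of the test's F statistic. Following the thresholds of the study, a gene is called higher or lower where LogFC is beyond 0.6 in either direction with an unadjusted p under 0.05. Benjamini-Hochberg adjusted p-values over all 11884 genes are given beside it.

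Far more genes were called higher in Neurog cells than lower. There were 827 genes called higher (6.96% of the genes tested) and 327 called lower (2.75%), so that 71.7% of the calls were higher in Neurog. The differences upward were also larger. Among the genes called higher the median LogFC was 1.84, with 381 beyond 2 and 210 beyond 3. Among those called lower the median was -1.01, with 45 beyond 2 and 19 beyond 3 in the negative direction. Over all genes the median LogFC was -0.03. The genes called higher had a median level of 53.4 CPM in Neurog cells, against 11.2 CPM in Neurog:WRPW cells. The genes called lower had a median of 36.2 CPM in Neurog cells, against 61.6 CPM in Neurog:WRPW cells. There were 1154 calls (9.71%) in all. Neurog and Neurog:WRPW levels did not overlap in the 827 higher genes (6.96%) and in 320 of the 327 lower genes (2.69% of the genes tested). Over all genes tested, 33.1% did not overlap with Neurog higher and 9.25% with Neurog lower. Overlap was judged on CPM without TMM scaling, and leaving out that scaling shifted the median LogFC of all genes by 0.23 towards Neurog. Called genes were chosen by a small p in these same libraries, so their lack of overlap is no separate support.

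The split depended on how the libraries were scaled. With upper-quartile scaling, which shifted the median LogFC of all genes by -0.12, 709 genes were called higher and 565 lower, or 55.7% higher. With no scaling beyond the column totals, which shifted it by 0.23, 1183 were called higher and 98 lower, or 92.3% higher. The larger number upward was found under each of the 4 scalings tried.

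**Figure D2:**
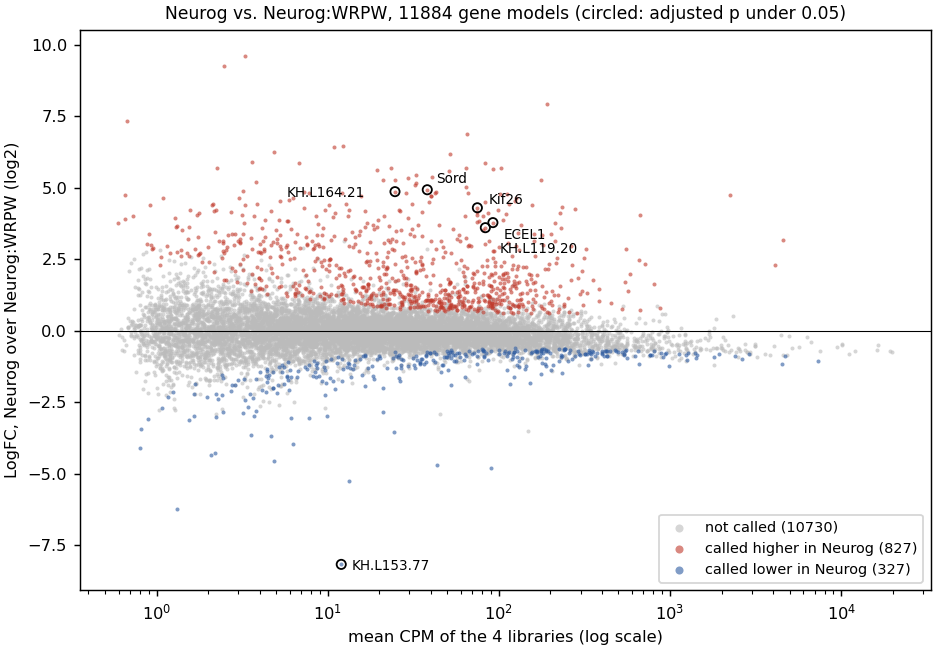
LogFC (Neurog over Neurog:WRPW, log2) against the mean CPM of the 4 libraries (log axis), 1 point per gene model, for 11884 gene models. Red points are the 827 genes called higher in Neurog, blue points the 327 called lower, and circles mark the 6 genes with adjusted p under 0.05.

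After adjustment over all genes, edgeR's quasi-likelihood test left 6 genes (0.0505% of those tested) under 0.05. Of these 5 were higher in Neurog (0.0421%) and 1 was lower (0.00841%), while 1154 genes (9.71%) had an unadjusted p under 0.05. *Kif26* (KH.C11.185), named after kinesin family motors, had 136 and 151 CPM in the Neurog libraries, against 7.21 and 5.04 CPM in the Neurog:WRPW libraries (LogFC = 4.30 ± 0.32 SE, adjusted p = 0.0464). *Sord* (KH.L105.1), named after sorbitol dehydrogenase, had 64.5 and 84.1 CPM in the Neurog libraries, against 1.99 and 2.13 CPM in the Neurog:WRPW libraries (LogFC = 4.93 ± 0.36 SE, adjusted p = 0.0464). *ECEL1* (KH.C1.731), a relative of the endothelin-converting peptidases, had 181 and 167 CPM in the Neurog libraries, against 11.3 and 10.1 CPM in the Neurog:WRPW libraries (LogFC = 3.79 ± 0.29 SE, adjusted p = 0.0464). These 3 genes were more than an order of magnitude higher in Neurog. The other 2 have no name in the tables used here. KH.L164.21 had 47.2 and 49.0 CPM in the Neurog libraries, against 1.43 and 1.36 CPM in the Neurog:WRPW libraries (LogFC = 4.87 ± 0.39 SE, adjusted p = 0.0464). KH.L119.20, which the study placed in BTNs by in situ hybridisation (ISH), had 134 and 178 CPM in the Neurog libraries, against 11.8 and 9.79 CPM in the Neurog:WRPW libraries (LogFC = 3.61 ± 0.30 SE, adjusted p = 0.0469). In each of these 5 genes the replicates of a group lay close together and the groups were far apart, and the lacZ mean lay between the group means. For *Sord* the lacZ libraries (1.53 and 3.35 CPM) straddled the Neurog:WRPW values.

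The 1 gene lower in Neurog at adjusted p under 0.05 was KH.L153.77, with 0.116 and 0.0633 CPM in the Neurog libraries (2 and 1 counts), against 18.5 and 29.4 CPM in the Neurog:WRPW libraries (361 and 303 counts) and 60.5 and 7.63 CPM in the lacZ libraries (LogFC = -8.16 ± 0.66 SE, adjusted p = 0.0319). Over the pooled counts it was 245-fold lower in Neurog, with an exact 95% interval of 83.6 to 1192 that covers counting error only. It was almost undetected in Neurog cells and clearly detected in the other 4 libraries.

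Because KH.L119.20, KH.L164.21 and KH.C11.353, the unnamed gene model next in order of p, cannot be looked up by name, 120 bases of the ISH probe template that the study lists for each are printed to identify the transcript. Each stretch is read in the frame that stays free of stop codons for longest from the start of the template, and begins at base 3, 1 and 2 of it. No position in them was singled out, so all letters are in lower case.
KH.L119.20: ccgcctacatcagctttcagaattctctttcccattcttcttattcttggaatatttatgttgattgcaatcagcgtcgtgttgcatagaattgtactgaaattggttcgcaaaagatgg
KH.L164.21: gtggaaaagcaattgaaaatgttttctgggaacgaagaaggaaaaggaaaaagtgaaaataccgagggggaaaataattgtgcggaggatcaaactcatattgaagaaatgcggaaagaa
KH.C11.353: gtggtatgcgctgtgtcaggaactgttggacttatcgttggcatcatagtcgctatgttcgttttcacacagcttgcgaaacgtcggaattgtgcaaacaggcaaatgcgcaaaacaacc
KH.C11.353 had 125 and 135 CPM in the Neurog libraries, against 1.43 and 0.194 CPM in the Neurog:WRPW libraries and 6.77 and 1.59 CPM in the lacZ libraries (LogFC = 6.89 ± 0.60 SE, adjusted p = 0.0513), and the study saw its probe in other CNS neurons. The next unnamed gene model, KH.C12.124, had 9.54 and 9.74 CPM in the Neurog libraries, against 0.102 and 0.0969 CPM in the Neurog:WRPW libraries (319 and 3 counts in all), a ratio of 96.0 with an exact 95% interval of 32.5 to 468 for counting error.

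These adjusted p-values lie close to the threshold, and the libraries decide on which side they fall. In a fit with 1 library left out its group keeps 1 library, which is assumed to vary as the other group does. The number under 0.05 after adjustment by edgeR in these fits was 115 when Neurog replicate 1 was dropped and 209 when Neurog replicate 2 was. It was 42 when Neurog:WRPW replicate 1 was dropped and 0 when Neurog:WRPW replicate 2 was. The numbers of calls at unadjusted p moved less. They became 452 higher and 307 lower on dropping Neurog replicate 1, and 749 higher and 259 lower on dropping Neurog replicate 2. They became 1275 higher and 346 lower on dropping Neurog:WRPW replicate 1, and 686 higher and 248 lower on dropping Neurog:WRPW replicate 2. None of the 80 genes named by rule changed direction in these 4 fits. Most of them were named for a small p in the main fit, and some for being called in these same 4 fits. Their steady direction was thus largely set by how they were chosen. Of the 100 list members that were not called, 94 had a positive LogFC with 4 libraries and 38 changed sign when 1 library was left out. These members were set apart by their weaker main result, so the difference from the named genes is no test. Beyond the 6 genes, the other 74 genes named by rule had adjusted p from 0.0513 to 0.587, and 75 of all 80 were under 0.05 with the replicate number as a block, as described next.

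With the replicate number added to the model as a block, the calls were 1254 higher (10.6%) and 894 lower (7.52%), 2148 in all (18.1%), and included every one of the 1154 genes called without it. An unadjusted p under 0.05 with any fold was reached by 2345 genes (19.7%). After adjustment the block fit left 437 genes (3.68%) under 0.05, 404 higher in Neurog (3.4%) and 33 lower (0.278%). The labels do not say that a number marks a shared batch or day, so the numbers may or may not pair the libraries. There were 388 genes that were called the same way in the fit of 4 libraries, with the block and without each library in turn, 359 higher in Neurog (3.02%) and 29 lower (0.244%). These are referred to below as the stable calls, a word that describes these 6 fits of the same libraries and is no separate support. Every other value is from the fit of 4 libraries without a block, unless another fit is named beside it.

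**Figure D3:**
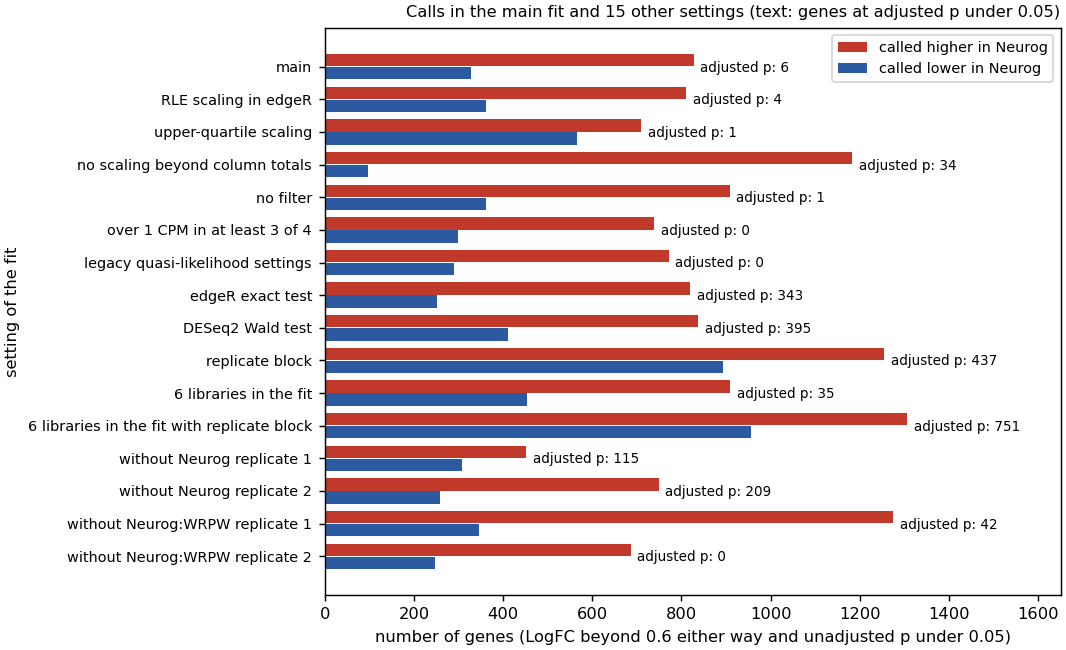
Number of genes called higher (red bars) and lower (blue bars) in Neurog under the main fit and 15 other settings, with the number at adjusted p under 0.05 printed beside the bars. Calls at unadjusted p were more often higher than lower in each of the 16 fits, and the number at adjusted p ran from 0 to 751.

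Gene names come from tables of the study that hold mainly genes raised in Neurog over lacZ cells, so names were at hand for 521 of the 827 genes called higher and for 0 of the 327 called lower. The lists used below were drawn from the same tables. They lean by construction to genes high in these same Neurog libraries, and the counts of members called, although above the 6.96% of all genes called higher, are not independent evidence of a direction. They show which named genes set the groups apart and by how much. No member of any of the 17 lists was called lower. None of the list medians below changed when genes with 0 counts in both Neurog:WRPW libraries were set to their lower bound.

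**Figure D4:**
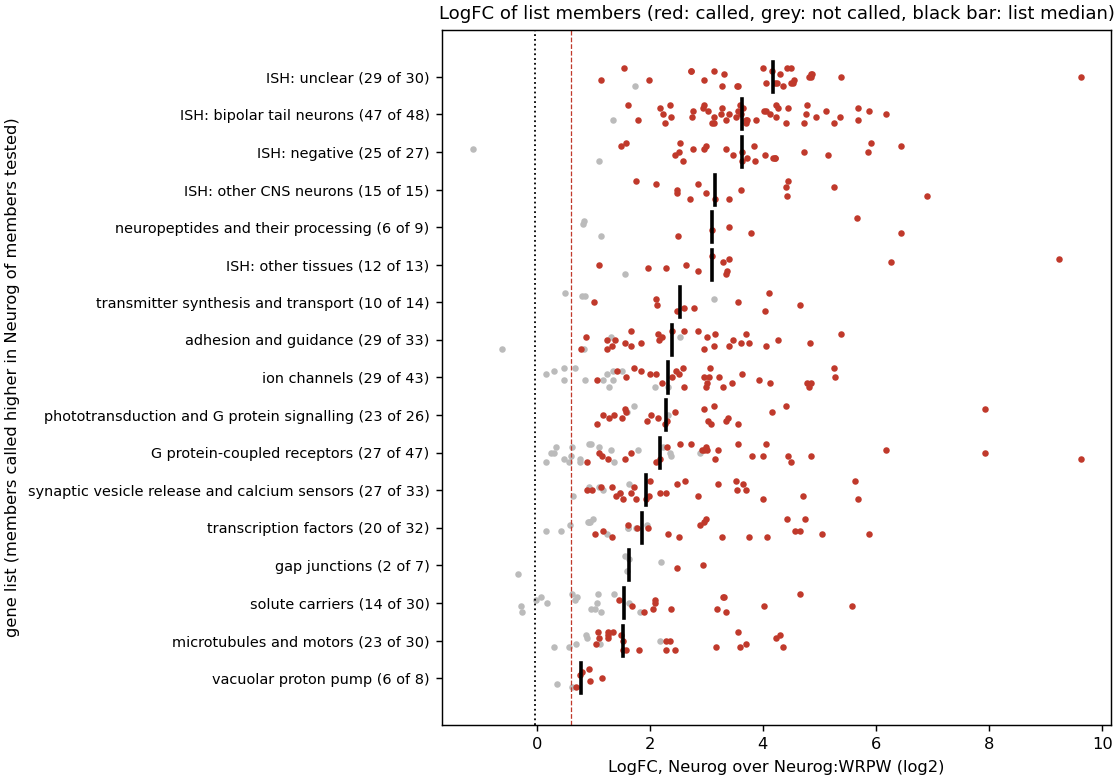
LogFC (Neurog over Neurog:WRPW, log2) of each tested member of 17 gene lists, ordered by list median (black bars), with called members in red and the others in grey. The dotted line is the median of all genes, -0.03, the dashed line is the LogFC limit of 0.6, and list medians run from 0.78 for the vacuolar proton pump to 4.18 for genes with an unclear ISH result.

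Among 32 transcription factors 20 were called higher in Neurog and the median LogFC was 1.86. The 4 with the smallest p were *Neurog*, *Onecut*, *Bhlh-tun2* and *Insm*. *Neurog* is supplied by the plasmid of the Neurog group, so its place among the 20 calls and among the stable ones was set by the design. *Onecut* (values above) had LogFC = 3.76 ± 0.45 SE, with 117 and 58.1 CPM in lacZ. *Bhlh-tun2*, whose closest human matches are the neuronal bHLH factors NHLH1 and NHLH2, had 149 and 179.9 CPM in the Neurog libraries, against 3.99 and 0.388 CPM in the Neurog:WRPW libraries (LogFC = 5.87 ± 0.75 SE). *Insm*, named after the zinc-finger factors INSM1 and INSM2 of neuroendocrine cells, had 22.3 and 26.9 CPM in the Neurog libraries, against 1.43 and 0.291 CPM in the Neurog:WRPW libraries (LogFC = 4.43 ± 0.60 SE). The Neurog:WRPW replicates of *Bhlh-tun2* and *Insm* differed several-fold between themselves, at low levels, yet both lay far under the Neurog libraries. The 12 factors not called had positive LogFC with 4 libraries, among them *LHX1/5* (1.62 ± 0.66 SE, adjusted p = 0.52) and *HAND/2* (0.17 ± 0.60 SE). Of the 20 calls 14 were stable.

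Among 43 ion channels 29 were called higher, with a median LogFC of 2.32, and 19 of these calls were stable. *CNGA1/2/3/5*, a cyclic nucleotide-gated channel, had 102 and 145 CPM in the Neurog libraries, against 13.2 and 13.6 CPM in the Neurog:WRPW libraries (LogFC = 2.96 ± 0.31 SE). *Gabrd*, named after a GABA receptor subunit, had 231 and 98.9 CPM in the Neurog libraries, against 10.4 and 5.91 CPM in the Neurog:WRPW libraries (LogFC = 4.12 ± 0.57 SE). Both were several-fold higher in each Neurog library. *HCN*, a channel opened by hyperpolarisation, had 117 and 49.5 CPM in the Neurog libraries, against 3.73 and 0.969 CPM in the Neurog:WRPW libraries (LogFC = 4.86 ± 0.73 SE). *UNC79*, a subunit of the sodium leak channel complex, had 393 and 263 CPM in the Neurog libraries, against 48.8 and 21.7 CPM in the Neurog:WRPW libraries (LogFC = 3.01 ± 0.46 SE). In these 4 channels every Neurog library exceeded every Neurog:WRPW library. *Asic* had LogFC = 5.27 ± 1.04 SE, and its 2 Neurog:WRPW libraries were themselves 14.1 and 1.16 CPM. *Anoctamin 7*, of the family of calcium-activated chloride channels and lipid scramblases, had 309 and 84.4 CPM in the Neurog libraries, against 9.51 and 2.81 CPM in the Neurog:WRPW libraries (LogFC = 4.78 ± 0.87 SE). Its Neurog replicates were far apart from each other.

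Not every channel followed. *GRID1/2*, of the glutamate receptor family, was 212 and 6.89 CPM in the Neurog libraries, against 139.6 and 4.65 CPM in the Neurog:WRPW libraries and 83.9 and 6.12 CPM in the lacZ libraries (LogFC = 0.48 ± 1.69 SE, adjusted p = 0.973). Replicate 1 of each group was high and replicate 2 low, so that the replicates differed much more than the groups. *CHRNB1*, of the nicotinic acetylcholine receptor family, was 26.7 and 3.54 CPM in the Neurog libraries, against 16 and 5.33 CPM in the Neurog:WRPW libraries (LogFC = 0.31 ± 0.96 SE). Neither direction held when libraries were left out, since without Neurog replicate 1 the LogFC was -3.64 for *GRID1/2* and -1.89 for *CHRNB1*. Between libraries of the same replicate number, Neurog was the higher in both for *GRID1/2*, and in replicate 1 alone for *CHRNB1*. With the replicate number as a block, LogFC was 0.43 ± 0.24 SE for *GRID1/2* and 0.21 ± 0.44 SE for *CHRNB1*, and neither was called.

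Among 47 G protein-coupled receptors 27 were called higher, with a median LogFC of 2.18 and 15 stable calls. *HRH1*, named after the histamine H1 receptor, had 162 and 119 CPM in the Neurog libraries, against 8.43 and 8.63 CPM in the Neurog:WRPW libraries (LogFC = 3.81 ± 0.35 SE, adjusted p = 0.0519). *Gpr22*, an orphan receptor, had 61.5 and 54.0 CPM in the Neurog libraries, against 3.78 and 4.65 CPM in the Neurog:WRPW libraries (LogFC = 3.55 ± 0.37 SE). Both replicates of each group were close for these receptors. *Adra2*, named after the alpha-2 adrenergic receptors, had 116 and 87.9 CPM in the Neurog libraries, against 1.99 and 0.0969 CPM in the Neurog:WRPW libraries (LogFC = 6.2 ± 0.75 SE). *RH2/3/4/5/6/7*, an opsin by its closest human matches, had 393 and 368 CPM in the Neurog libraries, against 2.30 and 0 CPM in the Neurog:WRPW libraries (LogFC = 7.93 ± 0.89 SE). The opsin was detected in 3 of these 4 libraries, with 6802 and 5811 counts in Neurog, against 45 and 0 counts in Neurog:WRPW. *Nmur*, named after the neuromedin U receptors, had 9.37 and 3.73 CPM in the Neurog libraries (162 and 59 counts), against 0 counts in both Neurog:WRPW libraries. Set against a floor of 3 counts over the Neurog:WRPW group, its pooled Neurog counts were 66.5-fold higher (edgeR adjusted p = 0.198). This ratio depends on the floor and covers neither counting error nor the spread between replicates. The 20 receptors not called had positive LogFC with 4 libraries. They include *ADRB1/2/3* (0.48 ± 0.67 SE) and *S1PR1/4* (0.16 ± 0.52 SE). Beside *Nmur*, 2 gene models called higher had 0 counts in both Neurog:WRPW libraries. They were chosen here after their values were seen and have no name. KH.C2.539 had 8.21 and 1.77 CPM in the Neurog libraries, 51.1-fold over the same floor (edgeR adjusted p = 0.344). KH.C2.1030 had 1.68 and 1.01 CPM in the Neurog libraries, 13.5-fold over it (edgeR adjusted p = 0.494). The same limits hold for these 2 ratios.

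A list of phototransduction and G protein signalling showed the same direction, but the lists share members. The opsin *RH2/3/4/5/6/7* and the channel *CNGA1/2/3/5*, both given above, are also on this list. Of 26 genes of phototransduction and G protein signalling 23 were called higher (median LogFC 2.29, 19 stable). *Pde11-related*, a cyclic nucleotide phosphodiesterase, had 443 and 337 CPM in the Neurog libraries, against 50.8 and 25.6 CPM in the Neurog:WRPW libraries (LogFC = 3.14 ± 0.40 SE). *Gng*, a G protein gamma subunit, had 168 and 116 CPM in the Neurog libraries, against 10.4 and 3.10 CPM in the Neurog:WRPW libraries (LogFC = 4.15 ± 0.58 SE). *Rgs19/20*, a regulator that speeds the shut-off of G proteins, had 389.5 and 205 CPM in the Neurog libraries, against 38.7 and 11.2 CPM in the Neurog:WRPW libraries (LogFC = 3.38 ± 0.65 SE). All 3 were higher in each Neurog library than in each Neurog:WRPW library.

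The 3 G alpha i/o paralogs that the study discusses differed in size of change. *Gnai-related* (KH.C2.872) had 193 and 108 CPM in the Neurog libraries, against 19.0 and 12.8 CPM in the Neurog:WRPW libraries (LogFC = 3.02 ± 0.43 SE). KH.L96.27 had 95.4 and 56.0 CPM in the Neurog libraries, against 31.0 and 26.9 CPM in the Neurog:WRPW libraries (LogFC = 1.17 ± 0.38 SE), and KH.C1.612 had 1336 and 1008 CPM in the Neurog libraries, against 638 and 504 CPM in the Neurog:WRPW libraries (LogFC = 0.82 ± 0.31 SE). The calls of KH.L96.27 and KH.C1.612 were lost when Neurog replicate 1, Neurog:WRPW replicate 1 or Neurog:WRPW replicate 2 was left out (LogFC from 0.65 to 1.20 for KH.L96.27 and from 0.52 to 0.92 for KH.C1.612). That of KH.C1.612 was also lost with upper-quartile scaling (LogFC = 0.69) and with edgeR's exact test. The call of *Gnai-related* was stable. How reads shared by these paralogs were counted is not given in the sources used here, and a test of the difference between paralogs was not run.

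Of 33 genes of synaptic vesicle release and calcium sensing 27 were called higher (median LogFC 1.93, 17 stable, and 17 called without Neurog replicate 1). *Syt7-related*, of the synaptotagmin family of calcium sensors for membrane fusion, had 56.7 and 42.9 CPM in the Neurog libraries, against 3.42 and 3.97 CPM in the Neurog:WRPW libraries (LogFC = 3.53 ± 0.40 SE). *Cplx2*, a complexin that binds the SNARE complex, had 165 and 137 CPM in the Neurog libraries, against 15 and 7.08 CPM in the Neurog:WRPW libraries (LogFC = 3.54 ± 0.42 SE). Both genes had close replicates in Neurog cells. *Ncs*, a neuronal calcium sensor, had 257 and 151 CPM in the Neurog libraries, against 5.26 and 1.26 CPM in the Neurog:WRPW libraries (LogFC = 5.68 ± 0.67 SE). *HPCAL4*, of the same family of calcium sensors, had 48.6 and 27.7 CPM in the Neurog libraries, against 0.971 and 0.194 CPM in the Neurog:WRPW libraries (LogFC = 5.62 ± 0.68 SE). *HPCAL4* lay under the floor of 3 counts in Neurog:WRPW replicate 2. *Bassoon-like*, named after a scaffold of the presynaptic active zone, had 107 and 50.1 CPM in the Neurog libraries, against 4.29 and 0.485 CPM in the Neurog:WRPW libraries (LogFC = 4.72 ± 0.83 SE). The 6 not called were *RIMS1/3/4*, *HPCAL1*, *NAPB*, *RAB27B*, *UNC13D* and *RIMBP2/3*, with LogFC of 1.18, 0.92, 0.63, 1.48, 1.64 and 1.11 in this order.

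Of 14 genes of transmitter synthesis and transport 10 were called higher (median LogFC 2.54, 8 stable). *GAD* had LogFC = 4.11 ± 0.90 SE, with Neurog libraries at 725 and 147 CPM. Members of the SLC6 family, which takes up transmitters and related molecules with sodium, were also called. *Slc6a11/12/13* had 435 and 596 CPM in the Neurog libraries, against 95.3 and 106 CPM in the Neurog:WRPW libraries (LogFC = 2.10 ± 0.28 SE), and *SLC6A13* had 99.4 and 66.2 CPM in the Neurog libraries, against 16.7 and 6.79 CPM in the Neurog:WRPW libraries (LogFC = 2.60 ± 0.49 SE). Each of these genes was higher in both Neurog libraries. *Slc18a3/VAChT* had LogFC = 4.03 ± 1.28 SE (adjusted p = 0.387), which rests on 15.7 and 0 CPM in the Neurog:WRPW libraries, and it was not called by DESeq2. *SLC32A1*, named after the transporter that loads GABA into vesicles, was 43.2 and 2.28 CPM in the Neurog libraries, against 4.04 and 0.0969 CPM in the Neurog:WRPW libraries, and was not called (LogFC = 3.14 ± 1.51 SE, adjusted p = 0.603). Its groups overlapped, since Neurog replicate 2 lay under Neurog:WRPW replicate 1. Between libraries of the same replicate number, Neurog was the higher in both. With the replicate number as a block *SLC32A1* was called higher (LogFC = 3.34 ± 0.39 SE, edgeR adjusted p = 0.00498).

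Of 9 genes for neuropeptides and their processing 6 were called higher (median LogFC 3.10), and all 6 calls were stable. Beside *ECEL1* these include *LF*, the precursor of the LF peptides, with 35.0 and 49.2 CPM in the Neurog libraries, against 3.32 and 5.04 CPM in the Neurog:WRPW libraries (LogFC = 3.10 ± 0.42 SE). *Galanin*, which carries the name of the vertebrate peptide, had 5.43 and 38 CPM in the Neurog libraries, against 0.204 and 0.194 CPM in the Neurog:WRPW libraries (LogFC = 6.44 ± 1.19 SE), with Neurog replicates far apart. *Cpe*, a carboxypeptidase that trims peptide precursors, had 340.1 and 136 CPM in the Neurog libraries, against 25.4 and 13.7 CPM in the Neurog:WRPW libraries (LogFC = 3.41 ± 0.58 SE). *PCSK2*, a convertase that cuts them, had 260.2 and 103 CPM in the Neurog libraries, against 5.62 and 0.0969 CPM in the Neurog:WRPW libraries (LogFC = 5.67 ± 1.11 SE). The 3 not called were *ECE1/2*, *PAM* and *GPA2*, with LogFC of 1.13, 0.83 and 0.82 in this order.

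Genes of microtubules and their motors made up the largest summed level of the lists. The sum was 25979.9 and 15224 CPM in the Neurog libraries, against 3869 and 2696 CPM in the Neurog:WRPW libraries and 7277 and 4760.1 CPM in the lacZ libraries. In every library most of it came from *alpha-Tubulin* and *TUBB4B*. The latter had 8878 and 4991 CPM in the Neurog libraries, against 1469 and 983 CPM in the Neurog:WRPW libraries (LogFC = 2.29 ± 0.46 SE). Of 30 members 23 were called higher, with a median LogFC of 1.53 and 14 stable calls, and 15 were called without Neurog replicate 1. *alpha-Tubulin* (KH.C8.892), a building block of microtubules, had 10473 and 6312 CPM in the Neurog libraries, against 975 and 635 CPM in the Neurog:WRPW libraries (LogFC = 3.17 ± 0.47 SE). How reads shared with other tubulin genes were counted is not given in the sources used here. *Dcx*, named after doublecortin, which binds microtubules in migrating neurons, had 311 and 195 CPM in the Neurog libraries, against 23.5 and 9.98 CPM in the Neurog:WRPW libraries (LogFC = 3.71 ± 0.50 SE). *Cdk5r*, an activator of the neuronal kinase Cdk5, had 500.4 and 357 CPM in the Neurog libraries, against 39.7 and 21.3 CPM in the Neurog:WRPW libraries (LogFC = 3.60 ± 0.41 SE). *Saxo*, named after the SAXO proteins that stabilise axonemal microtubules, had 77.7 and 22.1 CPM in the Neurog libraries, against 4.19 and 0 CPM in the Neurog:WRPW libraries (LogFC = 4.23 ± 1.16 SE) and was not called by DESeq2. Together with *Kif26*, these genes were higher in both Neurog libraries.

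Other genes of the study's text moved the same way. *Sema6*, of the semaphorin guidance molecules, had 588 and 478 CPM in the Neurog libraries, against 38.3 and 9.40 CPM in the Neurog:WRPW libraries (LogFC = 4.27 ± 0.65 SE). *Myh-tun3 (MHC3)*, a myosin heavy chain, had 76.8 and 78.3 CPM in the Neurog libraries, against 4.19 and 0.388 CPM in the Neurog:WRPW libraries (LogFC = 4.73 ± 0.74 SE). *Slc35g2*, of the solute carrier family, had 159.9 and 41.2 CPM in the Neurog libraries, against 2.15 and 1.45 CPM in the Neurog:WRPW libraries (LogFC = 5.57 ± 0.84 SE). Their calls were stable.

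Of 33 genes of adhesion and guidance 29 were called higher (median LogFC 2.40, 22 stable). *Follistatin-like*, a secreted protein by its closest human matches FSTL4 and FSTL5, had 1495 and 1036 CPM in the Neurog libraries, against 85.6 and 45.5 CPM in the Neurog:WRPW libraries (LogFC = 4.06 ± 0.44 SE). *Dpysl*, named after the collapsin response mediator proteins of growth cones, had 46.9 and 46.5 CPM in the Neurog libraries, against 2.71 and 4.56 CPM in the Neurog:WRPW libraries (LogFC = 3.48 ± 0.43 SE). The replicates of both genes lay close together in Neurog cells. *Basigin*, of the immunoglobulin superfamily, had 34.8 and 34.5 CPM in the Neurog libraries, against 3.07 and 1.26 CPM in the Neurog:WRPW libraries (LogFC = 3.70 ± 0.47 SE). *IGSF21*, of the same superfamily, had 34.5 and 29.9 CPM in the Neurog libraries, against 2.71 and 1.16 CPM in the Neurog:WRPW libraries (LogFC = 3.76 ± 0.48 SE). The 4 members not called were *EFNA1/2/3/4/5*, *PTPRO*, *SLIT2* and *CNTNAP2*. Of them *CNTNAP2* alone had a negative LogFC (-0.62 ± 1.2 SE), with 4.16 and 0.0633 CPM in the Neurog libraries, against 3.94 and 1.65 CPM in the Neurog:WRPW libraries, and it turned positive without Neurog replicate 2 (0.37) or Neurog:WRPW replicate 1 (0.09). *IGCM-1*, which is not on this list but has immunoglobulin superfamily matches in human, had 158 and 133 CPM in the Neurog libraries, against 11.4 and 5.91 CPM in the Neurog:WRPW libraries (LogFC = 3.83 ± 0.39 SE).

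The subunits of the vacuolar proton pump, which acidifies organelles and synaptic vesicles, had smaller differences. Of 8 members 6 were called higher, with a median LogFC of 0.78. *ATP6V0D1* had 134 and 120.4 CPM in the Neurog libraries, against 60.2 and 52.3 CPM in the Neurog:WRPW libraries (LogFC = 0.94 ± 0.26 SE). *ATP6V1B1/2* had 145 and 121 CPM in the Neurog libraries, against 70.1 and 49.7 CPM in the Neurog:WRPW libraries (LogFC = 0.93 ± 0.29 SE), and *ATP6V0A1* had 124 and 95.3 CPM in the Neurog libraries, against 55.4 and 29.8 CPM in the Neurog:WRPW libraries (LogFC = 1.15 ± 0.37 SE). The Neurog libraries lay clearly over the Neurog:WRPW libraries in each. *ATP6AP1*, an accessory subunit, had 245 and 232 CPM in the Neurog libraries, against 115 and 118 CPM in the Neurog:WRPW libraries (LogFC = 0.79 ± 0.26 SE). In all 8 members the groups did not overlap, beside 33.1% of all genes tested that did not overlap in this direction. Overlap was judged on CPM of the column total, without TMM scaling. None of the 6 calls was stable. On dropping Neurog replicate 1 there were 0 calls by edgeR, and on dropping either of the Neurog:WRPW libraries there were 3.

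Gap junction genes were the list with the smallest share called, 2 of 7 (median LogFC 1.63), and 6 of 7 were called with the replicate block. *GJC1* (KH.C7.208) had 31.4 and 19.3 CPM in the Neurog libraries, against 4.65 and 0.679 CPM in the Neurog:WRPW libraries (LogFC = 2.94 ± 0.74 SE). *Gjc1* (KH.C4.804) had 143 and 63.9 CPM in the Neurog libraries, against 25.1 and 7.17 CPM in the Neurog:WRPW libraries (LogFC = 2.47 ± 0.67 SE). Both were higher in each Neurog library than in each Neurog:WRPW library. KH.L147.13, with 22.3 and 5.50 CPM in the Neurog libraries, against 4.14 and 0.872 CPM in the Neurog:WRPW libraries, was not called (LogFC = 2.19 ± 0.92 SE, adjusted p = 0.531). A further gene named *GJC1* (KH.C11.160) was 41.8 and 20.7 CPM in the Neurog libraries, against 10.9 and 55.4 CPM in the Neurog:WRPW libraries (LogFC = -0.33 ± 0.81 SE). The Neurog:WRPW replicates of this gene lay on either side of both Neurog libraries. The list was sensitive to the libraries, with 5 calls on dropping Neurog replicate 2 and 6 on dropping Neurog:WRPW replicate 1.

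Of 30 solute carriers 14 were called higher (median LogFC 1.55, 10 stable). *SLC25A33/36*, of the mitochondrial carriers, had 48.1 and 61.2 CPM in the Neurog libraries, against 11.3 and 10.4 CPM in the Neurog:WRPW libraries (LogFC = 2.09 ± 0.31 SE). *QDR1/2/3* (KH.C10.602), whose human matches are organic cation and carnitine transporters, had 54.2 and 63.1 CPM in the Neurog libraries, against 2.91 and 7.37 CPM in the Neurog:WRPW libraries (LogFC = 3.30 ± 0.53 SE). *Slc7a14*, of the cationic amino acid transporter family, had 167 and 72.9 CPM in the Neurog libraries, against 9.81 and 2.81 CPM in the Neurog:WRPW libraries (LogFC = 4.01 ± 0.70 SE). The 3 solute carriers with a negative LogFC (*MUP1/3*, *CU638714.2* and another *QDR1/2/3*, KH.C7.544) had values of -0.28, -0.26 and -0.02 in this order, none of them called.

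Genes that the study had examined by ISH were also set against each other by where their probe was seen. For BTNs, other tissues and little or no signal, the lists used here hold slightly fewer genes than the study's text counts. Of 48 genes seen in BTNs 47 were called higher (median LogFC 3.63, 44 stable), and the remaining gene, KH.C6.138, had LogFC = 1.35 ± 0.59 SE (adjusted p = 0.548). Their summed level was 12534 and 7250.0 CPM in the Neurog libraries, against 1355 and 644 CPM in the Neurog:WRPW libraries and 2781 and 1431 CPM in the lacZ libraries. *Sord*, KH.L119.20, *Gpr22* and KH.C8.762 had the smallest p. KH.C8.762, with matches to human transglutaminases, had 48 and 34.2 CPM in the Neurog libraries, against 0.818 and 1.07 CPM in the Neurog:WRPW libraries (LogFC = 5.26 ± 0.50 SE). Replicate 1 exceeded replicate 2 in each of the 3 groups in this sum.

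The genes seen elsewhere were called in the same direction as the BTN genes. Of 15 genes seen in other CNS neurons 15 were called higher (median LogFC 3.16), and their summed level was 1880.3 and 1756 CPM in the Neurog libraries, against 248 and 219 CPM in the Neurog:WRPW libraries. *Fgf20*, a fibroblast growth factor, had 46.0 and 26.3 CPM in the Neurog libraries, against 2.56 and 2.52 CPM in the Neurog:WRPW libraries (LogFC = 3.62 ± 0.49 SE). Of 13 genes seen in other tissues 12 were called higher (median LogFC 3.09, 7 stable), and their summed level was 755 and 716 CPM in the Neurog libraries, against 139 and 103 CPM in the Neurog:WRPW libraries. They include *Brsk*, a kinase of neuronal polarity in mammals, with 239 and 182 CPM in the Neurog libraries, against 32.5 and 25.6 CPM in the Neurog:WRPW libraries (LogFC = 2.63 ± 0.31 SE). They also include *Asparaginase-like*, with 72.1 and 143 CPM in the Neurog libraries, against 7.26 and 10.3 CPM in the Neurog:WRPW libraries (LogFC = 3.36 ± 0.45 SE), and *Osbpl*, of the oxysterol-binding proteins, with 294 and 255 CPM in the Neurog libraries, against 74.2 and 46.9 CPM in the Neurog:WRPW libraries (LogFC = 1.96 ± 0.31 SE). The member not called was KH.C8.471 (LogFC = 1.56 ± 0.77 SE). These genes seen elsewhere moved with the genes seen in BTNs, and their part in the result was not tested.

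Of 27 tested genes with little or no ISH signal 25 were called higher (median LogFC 3.62). The study proposes that many such genes of low abundance might be expressed in BTNs at levels too low for ISH. Of 30 with an unclear pattern 29 were called higher (median LogFC 4.18). Among the genes with little or no signal are *Tff1*, named after the secreted trefoil factors, and *Lrrd*, a leucine-rich repeat protein. *Tff1* had 31.6 and 31.7 CPM in the Neurog libraries, against 1.53 and 1.36 CPM in the Neurog:WRPW libraries (LogFC = 4.21 ± 0.41 SE). *Lrrd* had 33.5 and 94.1 CPM in the Neurog libraries, against 1.58 and 1.36 CPM in the Neurog:WRPW libraries (LogFC = 5.16 ± 0.62 SE). KH.C1.84 of the same list had 20.7 and 6.20 CPM in the Neurog libraries, against 0.256 and 0.0969 CPM in the Neurog:WRPW libraries (LogFC = 5.85 ± 0.99 SE). *Gelsolin*, an actin-severing protein with an unclear pattern, had 72.1 and 73.7 CPM in the Neurog libraries, against 8.38 and 5.62 CPM in the Neurog:WRPW libraries (LogFC = 3.14 ± 0.33 SE). These genes were all higher in both Neurog libraries than in either Neurog:WRPW library, although *Lrrd* and KH.C1.84 differed strongly between the Neurog replicates. The study picked its ISH genes as potential BTN markers after profiling these libraries, and the ground on which each was taken is not stated for every gene. These counts are therefore no separate support.

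**Figure D5:**
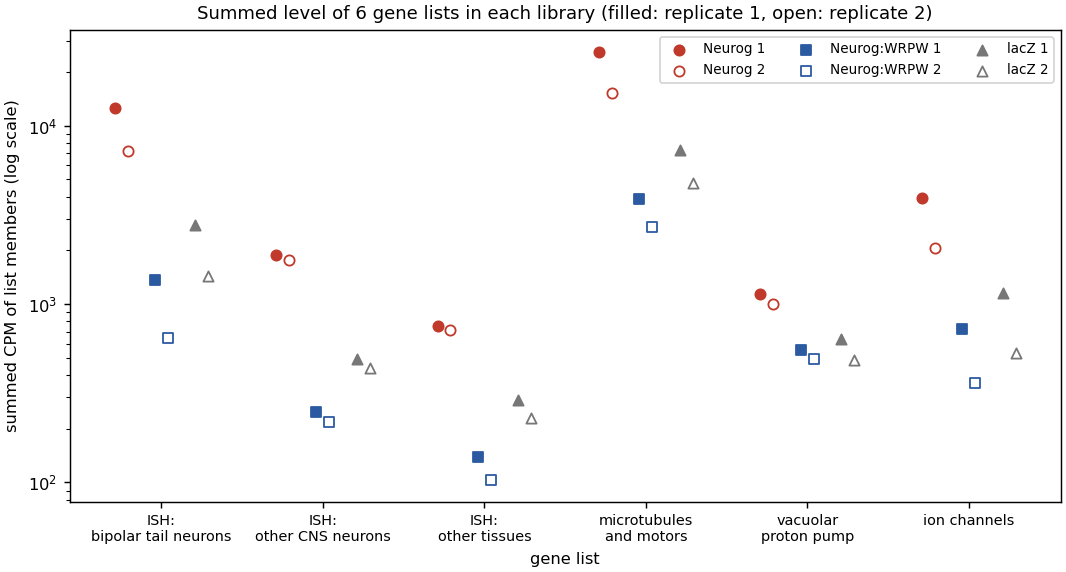
Summed CPM of 6 gene lists in each library (log axis), with Neurog (red), Neurog:WRPW (blue) and lacZ (grey) from left to right, filled for replicate 1 and open for replicate 2. Both Neurog libraries lie highest in each list, the Neurog:WRPW and lacZ sums overlap for the vacuolar proton pump and the ion channels, and replicate 1 lies over replicate 2 throughout.

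The remaining named genes by order of p have no list of their own. *MLP60A*, whose human matches are the CRIP family of LIM proteins, had 142 and 192 CPM in the Neurog libraries, against 20.5 and 19.9 CPM in the Neurog:WRPW libraries (LogFC = 2.80 ± 0.28 SE). *MFSD6*, of the major facilitator transporters, had 185 and 183 CPM in the Neurog libraries, against 28.7 and 29.9 CPM in the Neurog:WRPW libraries (LogFC = 2.41 ± 0.27 SE). *Ci-R1CiGC26c12*, with 224 and 29.9 CPM in the Neurog libraries, against 2.91 and 1.26 CPM in the Neurog:WRPW libraries (LogFC = 5.68 ± 1.14 SE), was among the 10 named stable genes with the largest LogFC. The Neurog replicates of the first 2 lay close together, while those of *Ci-R1CiGC26c12* were far apart.

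The 327 genes called lower in Neurog cells carry no names in the tables used here, so only their size and spread can be given. The 2 with the smallest p after KH.L153.77 were KH.L144.14, with 0.52 and 1.08 CPM in the Neurog libraries, against 8.89 and 8.24 CPM in the Neurog:WRPW libraries (LogFC = -3.67 ± 0.58 SE), and KH.C9.602, with 6.1 and 1.52 CPM in the Neurog libraries, against 47.1 and 119.6 CPM in the Neurog:WRPW libraries (LogFC = -4.67 ± 0.84 SE). In lacZ they stood at 16 and 7.80 CPM and 174 and 26.5 CPM, so that both were lowest in Neurog. Beside KH.L153.77, 2 genes called lower had a LogFC under -5, and they are named here after their values were seen. KH.L87.21 had 1.10 and 0.506 CPM in the Neurog libraries, against 1.48 and 50.1 CPM in the Neurog:WRPW libraries, so that its difference rests on Neurog:WRPW replicate 2. KH.C3.97 had 0 and 0.0633 CPM in the Neurog libraries, against 1.12 and 4.07 CPM in the Neurog:WRPW libraries and 6.0 and 0.531 CPM in the lacZ libraries. The 29 stable calls were 8.87% of the 327, where the 359 stable calls upward were 43.4% of the 827. The quartiles of LogFC were -1.58 and -0.80 downward, and 1.18 and 3.01 upward. Gene models called lower and higher had a similar median length, 2099 bases and 2027 bases, against 1867.5 bases for all genes tested.

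The lacZ libraries, which had no part in the fit, show where the called genes stood in control cells. Of the 827 genes called higher, 783 (94.7%) had a lacZ mean between the Neurog and Neurog:WRPW means, 41 (4.96%) lay under both and 3 over both. Of the 327 called lower, 253 (77.4%) lay between, 68 (20.8%) over both and 6 (1.83%) under both. Over all genes tested 50.4% lay between, 26.7% over both and 22.9% under both. A gene with a large gap between the 2 group means leaves more room for a value between them, so these shares are a description. The median lacZ level was 19.8 CPM over the genes called higher and 53.9 CPM over those called lower. *Neurog* itself lay under both in lacZ. The 3 genes called higher with a lacZ mean over both, named after their values were seen, were KH.C2.1121, KH.C3.257 and KH.C7.609, with LogFC of 0.84, 0.64 and 4.01 in this order. KH.C3.257 had 355 and 390.3 CPM in the Neurog libraries, against 197 and 206 CPM in the Neurog:WRPW libraries and 388 and 393 CPM in the lacZ libraries, so that Neurog and lacZ overlapped.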

How the data were processed

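The deposited table holds raw counts per KyotoHoya (KH) gene model and the length of each model. Per the study's methods, the authors used STAR 2.5.2b for alignment and featureCounts for exon counts, ignoring duplicates; these counts are not normalized. The assembly version, strand setting and treatment of multi-mapped reads: not given in the sources used here. Duplicate removal without molecular identifiers can lower the counts of very abundant genes.

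The 2 Neurog and 2 Neurog:WRPW libraries were grouped by the labels and fitted in R 4.3.3 with edgeR 4.0.16 (TMM scaling, quasi-likelihood test) over gene models above 1 CPM in at least 2 of these 4 libraries. Calls used LogFC beyond 0.6 with an unadjusted p under 0.05, and p-values were adjusted by Benjamini-Hochberg over all genes tested. With 2 libraries against 2, an exact permutation test cannot give a two-sided p below 0.333, so none is given for single genes. P-values measure only the spread between these libraries. The method was tested on simulated data before use. Counts and intervals cover counting error only.

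Alternatives were RLE, upper-quartile or no scaling, no filter or a stricter one, the legacy quasi-likelihood settings, edgeR's exact test, DESeq2 1.42.0, the replicate number as a block, a fit of all 6 libraries with and without that block, and leaving out each library in turn.

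The comparison, the lists and the tests were chosen with earlier results of these data known. The lists come from study tables ordered by the contrast of Neurog with lacZ, which shares the Neurog libraries, and those tables were held only in part. Named are genes with adjusted p under 0.05 (up to 10 per direction), the 15 annotated called genes per direction with the smallest p and groups that do not overlap, the 4 members per list with the smallest p, 2 gene models without a name per direction, the 10 annotated genes per direction with the largest LogFC that were called in the main fit, with the block and without each library, and the genes of the study's text. Further members named with their values were those not called. Promoter sequences were not analysed here. Of the genes that this rule names, 2 are not reported here.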

Additional observations from a re-analysis of the deposited data

How the results depend on the processing

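The 827 genes called higher and 327 called lower in Neurog became 1254 and 894 with the replicate number as a block, and 1306 and 956 with the block in a fit of all 6 libraries. Genes called lower were 565 with upper-quartile scaling and 98 with no scaling. Leaving out 1 library gave from 452 to 1275 genes higher and from 248 to 346 lower. All other settings stayed within 1.5 times of both counts.

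The number at adjusted p under 0.05, 5 higher and 1 lower by edgeR's quasi-likelihood test, depended on the setting. The 5 became 3 with RLE scaling, 33 with no scaling, 35 with 6 libraries, 322 with edgeR's exact test, 361 with DESeq2, 404 with the replicate block and 602 with the block in the fit of 6 libraries. They became 0 with upper-quartile scaling, with no filter, with a filter on 3 of 4 libraries and with the legacy settings, where 1274, 1269, 1036 and 1060 genes were called at unadjusted p. The 1, KH.L153.77, was not tested with the filter on 3 of 4 libraries, where 0 lower genes were left. It became 0 with the legacy settings and with 6 libraries, 21 with the exact test, 34 with DESeq2, 33 with the replicate block and 149 with the block and 6 libraries. Leaving out 1 library gave from 0 to 203 higher and from 0 to 6 lower. For the 6 genes the adjusted p reached 0.0861 at most, over 15 settings for the 5 higher genes and over 14 for KH.L153.77. The cause of these differences was not tested.

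Same-numbered libraries of the 2 groups deviated together, with a correlation of 0.462 over 11884 genes and 0.551 over the 7984 genes above 8 CPM on average. With 2 pairs the numbers may still mark nothing shared, so the block result with its 1254 and 894 calls is a second reading of the data. No gene named by rule changed sign under any setting that tested it, a result that their choice from the main fit made likely. DESeq2 did not call *Saxo* or *Slc18a3/VAChT*, at LogFC of 4.41 and 4.10, and the calls added by the block include KH.L147.13. Of the lists, the gap junctions moved by more than 1.5 times, to 6 calls with the block, 5 with the block in the fit of 6 libraries, and 4 with the exact test or DESeq2. A motif description of promoters was not run. Depth limits the genes with few counts in 1 group. Libraries of 10315548 to 19565263 counts cannot separate a level of 0 from one under 3 counts. Neurog:WRPW replicate 2 had both the fewest counts and the fewest sorted cells. It had 13009 gene models with a count, against 14497 in Neurog:WRPW replicate 1. Levels at or near 0 in this library may be limited by cell number as well as depth, which was not tested.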
